A study of Mus musculus with 12 samples.

Results

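Imprinted genes are expressed mainly from the chromosome copy inherited from the father or mainly from the copy inherited from the mother. Here 35 such mouse genes were followed in CD8 T cells with a knockout of linker histone H1 genes. They were taken by symbol from a table of 24421 genes, and all 35 were found in it. By textbook knowledge 20 are expressed from the paternal copy and 12 from the maternal copy, while Grb10, Gnas and Inpp5f use either copy depending on the tissue or the transcript. The table holds total expression of each gene, so which copy was read was not measured.

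Animals with the genotype label cTKO were compared with WT controls, all of the C57BL/6 strain. The series concerns H1 linker histones, and cTKO is read here as the combined knockout of the linker histone genes Hist1h1c, Hist1h1d and Hist1h1e. The sources used here give neither the Cre driver nor the ages of the animals. CD8 T cells were sorted from spleen (500000 cells per sample), and polyadenylated RNA was sequenced from 2 cTKO animals and 2 WT animals, each genotype with 1 female and 1 male. The series labels 12 samples in 6 groups (3 cell types, 2 genotypes), and the other cell types were not analysed here.

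At most imprinted domains a differentially methylated DNA element is set in the germ line and decides which parental copy is transcribed. Several domains carry a long noncoding RNA made from the paternal copy that silences its neighbours on that copy, as Kcnq1ot1 and Airn do. Many imprinted genes act in fetal and placental growth or in the brain and have low expression in adult tissues. Linker histone H1 sits on the nucleosome where the DNA strands meet, and packs chromatin more tightly.

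Reads in each library were recovered from the deposited means, as described under the processing of the data. Recovered genes held 13646060 and 9382416 reads in the female and male cTKO libraries, against 15180395 and 10251730 in the female and male WT libraries. Xist had 4871 and 28 reads in cTKO and 479 and 2 in WT, and the Y-linked gene Uty had 0 and 689 in cTKO and 0 and 491 in WT, so the larger library of each genotype was matched to the female. Library size and sex therefore cannot be told apart. Hist1h1c had 0 reads in both cTKO libraries, against 41 and 56 in WT, Hist1h1e had 0 in both, against 64 and 112, and Hist1h1d had 0 in both, against 5 and 11. The table does not name the numerator of its fold changes, which were taken as cTKO over WT since these deleted genes are negative in it. Taken the other way, every direction given here would turn. The T cell genes Cd8a and Cd3e had mean normalized reads of 20303 and 12041 over the 4 libraries, while Cd4 had 1.57. Of 9 CD8 T cell genes followed, the receptor signalling adaptor gene Lat alone was called, with 5017 and 5443 reads in cTKO, against 16675 and 9605 in WT (-1.19 ± 0.33 on the log2 scale, with an adjusted p of 0.00509, in the authors' deposited table). Of 7 linker histone H1 genes Hist1h1c and Hist1h1e were lower and H1f0, Hist1h1a and H1fx were higher. H1f0, the replacement form, had 12367 and 7501 reads in cTKO, against 113 and 111 in WT, Hist1h1a had 37 and 29, against 4 and 1, and H1fx had 16 in each cTKO library, against 0 in both WT libraries (adjusted p-values 4.71e-88, 0.0115 and 0.0149 in the authors' deposited table).

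The promoters of the Ndn domain and of Igf2r are shown because they set genes that changed beside neighbours that stayed silent or did not pass the test. Each is the 250 bases before a RefSeq start on GRCm38.p6, read 5′ to 3′ on the gene's own strand, with CG pairs (the sites of DNA methylation) in capitals. Ndn, Magel2, Mkrn3 and Peg12 lie side by side on chromosome 7, at chr7:62348027-62348276 (plus strand), chr7:62376729-62376978 (plus), chr7:62420154-62420403 (minus) and chr7:62464511-62464760 (minus). Igf2r lies at chr17:12769707-12769956 (minus).
Ndn: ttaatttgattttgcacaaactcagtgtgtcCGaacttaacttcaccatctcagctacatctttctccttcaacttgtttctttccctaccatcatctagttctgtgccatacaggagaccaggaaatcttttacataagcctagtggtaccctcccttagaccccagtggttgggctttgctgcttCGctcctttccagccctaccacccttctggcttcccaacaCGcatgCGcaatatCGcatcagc
Magel2: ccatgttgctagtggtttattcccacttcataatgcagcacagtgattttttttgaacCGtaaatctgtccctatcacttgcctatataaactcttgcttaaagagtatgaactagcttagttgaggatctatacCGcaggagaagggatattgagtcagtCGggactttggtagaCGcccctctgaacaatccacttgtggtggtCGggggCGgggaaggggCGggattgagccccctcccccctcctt
Mkrn3: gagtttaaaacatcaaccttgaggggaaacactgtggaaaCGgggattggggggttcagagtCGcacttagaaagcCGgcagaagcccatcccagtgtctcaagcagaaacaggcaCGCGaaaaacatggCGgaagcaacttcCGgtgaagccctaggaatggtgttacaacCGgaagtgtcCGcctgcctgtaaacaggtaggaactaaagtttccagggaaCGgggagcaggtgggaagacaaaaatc
Peg12: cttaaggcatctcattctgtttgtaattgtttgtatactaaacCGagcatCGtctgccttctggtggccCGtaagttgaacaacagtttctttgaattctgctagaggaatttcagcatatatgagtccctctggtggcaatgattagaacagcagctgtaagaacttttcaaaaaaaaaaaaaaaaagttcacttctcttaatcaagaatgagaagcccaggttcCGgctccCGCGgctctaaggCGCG
Igf2r: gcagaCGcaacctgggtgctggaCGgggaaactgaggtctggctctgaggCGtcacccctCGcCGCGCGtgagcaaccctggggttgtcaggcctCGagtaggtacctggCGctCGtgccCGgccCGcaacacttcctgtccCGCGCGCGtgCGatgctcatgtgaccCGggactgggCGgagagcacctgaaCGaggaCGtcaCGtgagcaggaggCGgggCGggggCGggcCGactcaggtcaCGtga

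The shown stretch held 5 CG pairs before Ndn, 7 before Magel2, 10 before Mkrn3 and 8 before Peg12, against a median of 6 over 32851 mouse promoters of this length. Before Igf2r it held 27. The bases around the RefSeq start were found in a GENCODE vM21 transcript for Ndn, Mkrn3 and Peg12. For Magel2 and Igf2r they were not, so their counts rest on the RefSeq start alone. RefSeq promoters were at hand for 27 of the 35 genes, with 40 starts in all. The letters TGCCGC are the core of the site bound by the imprint guardian ZFP57. They were found on either strand in 15% of these 40 stretches and in 8.68% of all promoters of the same length. Starts of the same gene were counted separately, and overlapping Mest stretches were among those holding the letters. None of the 5 stretches printed here held them, which says nothing of binding elsewhere.

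Of the 35 imprinted genes, 16 had an adjusted p-value in the authors' test and are called tested here. Of these, 4 were higher in cTKO CD8 T cells, while none was lower. The 4 were Ndn, Sgce and Peg13, which are expressed from the paternal copy, and Igf2r, which is expressed from the maternal copy. Genes were called at the authors' adjusted p-value under 0.05, at which 9.77% of the 12972 genes tested were higher and 3.61% were lower. Ndn, Sgce, Peg3 and Peg12 had at most 1 WT read and passed the filter on low means through their cTKO reads alone. They had to be higher to be tested, so these shares are no like comparison for the count of 4. At an unadjusted p under 0.05, Tssc4 and Inpp5f lay lower in the authors' deposited table. Of the imprinted genes, limma on the recovered reads of all 4 libraries called none lower, and with sex as a term it called Inpp5f lower. The table reports 2 animals per genotype, so p-values measure the spread between these animals.

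**Figure D1:**
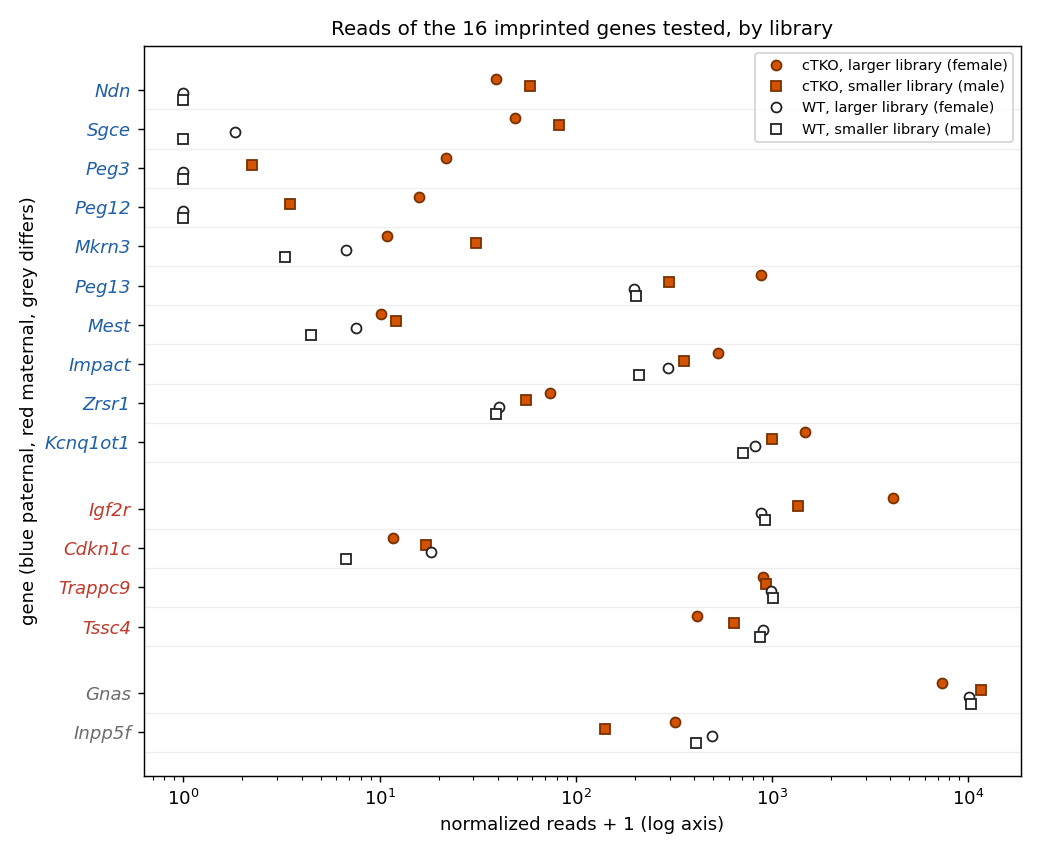
Normalized reads plus 1 (log axis) of the 16 tested imprinted genes, with 1 row per gene. The 2 cTKO libraries are filled and the 2 WT libraries open, with circles for the female and squares for the male library. Ndn has 46 reads in each cTKO library and none in WT, while Igf2r and Peg13 are highest in the female cTKO library.

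Ndn, which codes for necdin, a MAGE family protein, lies at chr7:62348277-62349928. It had 46 reads in each cTKO library (38.1 and 57.1 normalized reads in the female and the male), against 0 reads in both WT libraries. Against a floor of 3 reads over the WT libraries this is at least 31.7-fold higher. The authors' deposited table gives 8.05 ± 1.69 on the log2 scale (fold change ± SE of the authors' fit, as throughout), with an adjusted p of 5.74e-05. Of the tested genes whose mean reached 10, 0.935% had no read in either WT library. Ndn was higher in every fit that left out 1 library; such a fit leaves a genotype with a single library, which is assumed to vary like the other genotype.

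The other genes of the Ndn domain are paternally expressed too and were followed beside it. Peg12, a Frat family gene of Wnt signalling, had 18 and 2 reads in cTKO, against 0 in both WT libraries. For Peg12 the authors' deposited table gives 5.61 ± 2.50 on the log2 scale with an adjusted p of 0.121, which did not pass. Mkrn3, a makorin ring finger gene, had 12 and 24 reads in cTKO, against 7 and 2 in WT (2.26 ± 1.28 on the log2 scale, with an adjusted p of 0.251, in the authors' deposited table). For Mkrn3 the cTKO libraries lay above the WT libraries, as in 53.6% of all tested genes with a mean from 10 to 50. Peg12 entered the test through its cTKO reads alone, so it could be tested only if higher. Magel2, another MAGE family gene of the domain, had 0 reads in all 4 libraries. Snrpn, the spliceosomal gene further along the domain, also had 0. Its reading frame partner Snurf, which shares its transcript, stood at 0 too, so reads in the shared part could not be followed. Snhg14, the noncoding RNA that runs through Snrpn, had 140 and 52 reads in cTKO, against 49 and 24 in WT (adjusted p 0.116 in the authors' deposited table).

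Sgce, which codes for epsilon-sarcoglycan, lies on chromosome 6 next to the retrotransposon-derived gene Peg10, and the pair is expressed from the paternal copy. Sgce had 58 and 65 reads in cTKO (48.0 and 80.7 normalized reads), against 1 and 0 in WT. The ratio of summed reads per library size was 127, with a 95% interval of 22.4 to 5063 that covers counting error only. The authors' deposited table gives 7.06 ± 1.59 on the log2 scale for Sgce, with an adjusted p of 0.000216. Peg10 stayed near 0, with 7 and 0 reads in cTKO and 0 in both WT libraries, and had no adjusted p-value. Sgce was higher in every fit that left out 1 library.

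Genes around Sgce were looked at within 1000 kb on either side, a width chosen after the values were seen. Of 7 tested neighbours 2 were higher and none was lower, against 9.77% higher and 3.61% lower over all genes tested. Col1a2, a collagen gene 133 kb away, had 163 and 107 reads in cTKO and 0 in both WT libraries, and Gng11, a G protein subunit gene further out on the same side, had 44 and 36 against 0 in both. Col1a2 was at least 93.0-fold higher and Gng11 at least 27.6-fold higher against a floor of 3 reads over the WT libraries. Both entered the test through their cTKO reads alone, so they had to be higher to be tested. The maternally expressed gene Casd1, which lies between Col1a2 and Sgce, had 1430 and 864 reads in cTKO, against 1503 and 948 in WT (-0.05 on the log2 scale, with an adjusted p of 0.945, in the authors' deposited table). Pon2, on the other side and also maternally expressed, had 1179 and 845 reads in cTKO, against 1828 and 1107 in WT (-0.46 on the log2 scale, with an adjusted p of 0.348, in the authors' deposited table, not passed). The maternally expressed genes Pon3 and Asb4 on that side had log2 fold changes of 2.02 and 4.01, with adjusted p-values of 0.0842 and 0.0543 in the authors' deposited table, and neither passed. Col1a2 is also a marker of stromal cells. Of the 12 stromal and endothelial markers followed, it alone was higher, Pecam1 was lower, Lum was at 0, and Col1a1 had 3 and 3 reads in cTKO, against 4 and 1 in WT. The summed normalized reads of the 12 markers were 595 and 542 in cTKO, against 2052 and 1894 in WT, and most of each sum was Pecam1, which CD8 T cells can also express. The other 11 markers summed to 168 and 149 in cTKO, against 9.06 and 8.08 in WT, a split made after the values were seen. Most of each cTKO sum was Col1a2 itself, at 135 and 133 normalized reads. Of the 11 markers Cxcl12 had 12 and 7 reads in cTKO and 0 in both WT libraries (adjusted p 0.0919 in the authors' deposited table, not passed). The part of stromal RNA in Sgce and its neighbours was not tested.

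Igf2r codes for the receptor that binds mannose 6-phosphate and clears the growth factor IGF2, and is expressed from the maternal copy. It lies on the minus strand at chr17:12682406-12769706, with the paternal noncoding RNA Airn running against it. Igf2r had 4123 and 1352 normalized reads in the female and male cTKO libraries, against 873 and 920 in WT. In the authors' deposited table this was 3.05-fold higher in cTKO (1.61 ± 0.44 on the log2 scale, with an adjusted p of 0.00354). Each cTKO library lay above each WT library, and the female cTKO library had 3.05 times the male one. By limma on the recovered reads Igf2r did not pass (adjusted p 0.0575), and without the female cTKO library its log2 fold change was 0.59 (adjusted p 0.197). Airn had 77 and 42 reads in cTKO, against 20 and 43 in WT (0.83 on the log2 scale, with an adjusted p of 0.497, in the authors' deposited table). The sources used here do not say whether the counting used strand, so reads of Igf2r and Airn may be mixed. The ligand gene Igf2, which is paternally expressed, had 0 reads in all 4 libraries.

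Peg13 is a paternally expressed noncoding RNA that lies inside the gene Trappc9, on the same strand. It had 872 and 296 normalized reads in cTKO, against 198 and 201 in WT, and each cTKO library lay above each WT library. In the authors' deposited table it was 2.94-fold higher (1.55 ± 0.47 on the log2 scale, with an adjusted p of 0.0112). As with Igf2r, the female cTKO library was far above the male, by 2.95 times, and limma gave a log2 fold change of 0.57 without it (adjusted p 0.343). With all 4 libraries limma did not call Peg13 either (adjusted p 0.0797). Of the 1254 genes called higher with recovered reads, 32.7% had over 2 times as many normalized reads in the female as in the male cTKO library. The host gene Trappc9, a subunit of a vesicle trafficking complex with a maternal bias in brain, had 894 and 927 normalized reads in cTKO, against 982 and 1014 in WT (-0.13 ± 0.31 on the log2 scale, with an adjusted p of 0.826, in the authors' deposited table). Since both lie on the same strand, reads of unspliced Trappc9 RNA and of Peg13 cannot be told apart. No gene among the 7 tested within 1000 kb of Peg13 passed, against 13.4% of all genes tested that passed in either direction.

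**Figure D2:**
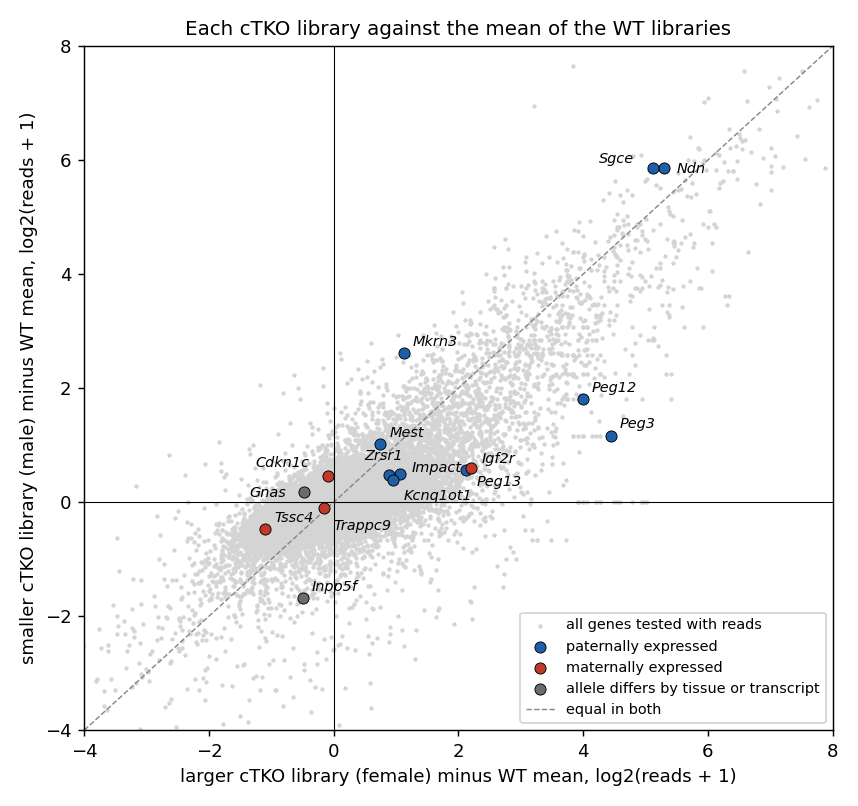
Each point is a gene: on the x axis the female (larger) cTKO library minus the WT mean, on the y axis the male (smaller) cTKO library minus the WT mean, both on the log2(normalized reads + 1) scale. Ndn (5.29 and 5.86) and Sgce (5.12 and 5.86) lie near the dashed line of equal difference, while Igf2r (2.20 and 0.59) and Peg13 (2.12 and 0.57) lie below it.

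The remaining tested paternally expressed genes did not pass the test. Peg3, a zinc finger gene, had 25 and 1 reads in cTKO and 0 in both WT libraries (5.95 ± 2.41 on the log2 scale, with an adjusted p of 0.0809, in the authors' deposited table). Nearly all of its reads came from the female cTKO library. The noncoding RNA Kcnq1ot1, which silences genes of the Kcnq1 domain on the paternal copy, had 1475 and 996 normalized reads in cTKO, against 822 and 709 in WT, which is 0.69 ± 0.34 on the log2 scale with an adjusted p of 0.164 in the authors' deposited table. Impact, an inhibitor of the kinase GCN2, had 530 and 355 normalized reads in cTKO, against 295 and 209 in WT (0.81 ± 0.39 on the log2 scale, with an adjusted p of 0.158, in the authors' deposited table). For both genes the cTKO libraries lay above the WT libraries. Zrsr1, a splicing factor retrogene inside Commd1, had 72.9 and 54.7 normalized reads in cTKO, against 39.5 and 38.1 in WT (0.72 ± 0.62 on the log2 scale, with an adjusted p of 0.492, in the authors' deposited table). Mest, an alpha/beta hydrolase gene, had only 11 and 9 reads in cTKO and 8 and 3 in WT (1.00 ± 1.45 on the log2 scale, with an adjusted p of 0.709, in the authors' deposited table).

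Among the maternally expressed genes, those of the Kcnq1 domain on chromosome 7 lay under or near 0 change. Tssc4, which takes part in the assembly of a spliceosome subunit and is imprinted mainly in placenta, had 412 and 635 normalized reads in cTKO, against 899 and 865 in WT. Each cTKO library lay below each WT library, and the change of -0.76 ± 0.35 on the log2 scale did not pass in the authors' deposited table (adjusted p 0.136). Cdkn1c, the cell cycle inhibitor p57, had 13 reads in each cTKO library, against 21 and 5 in WT, so the genotypes overlapped (0.20 ± 1.18 on the log2 scale, with an adjusted p of 0.938, in the authors' deposited table). The placental genes Ascl2, Phlda2 and Slc22a18 of the same stretch had 0 reads in all 4 libraries. Kcnq1 itself, which Kcnq1ot1 runs against, had 1 read, in the female cTKO library.

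Of the genes with no fixed parental copy, Gnas and Inpp5f were tested and neither passed. Gnas, which codes for the stimulatory G protein alpha subunit, had the highest level of the 35, with a mean of 877 normalized reads per kb of exon. It had 7312 and 11548 normalized reads in cTKO, against 10039 and 10341 in WT, and the genotypes overlapped (-0.11 ± 0.32 on the log2 scale, with an adjusted p of 0.861, in the authors' deposited table). Nespas, the noncoding RNA antisense to it, had 36 and 10 reads in cTKO, against 7 and 6 in WT (an adjusted p of 0.336 by the authors' deposited table). The phosphoinositide phosphatase gene Inpp5f, of which a variant transcript alone is paternal, had 321 and 140 normalized reads in cTKO, against 496 and 408 in WT. Each cTKO library lay below each WT library (-0.97 ± 0.44 on the log2 scale, with an adjusted p of 0.127, in the authors' deposited table), and limma with sex as a term called it lower (adjusted p 0.0368).

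**Figure D3:**
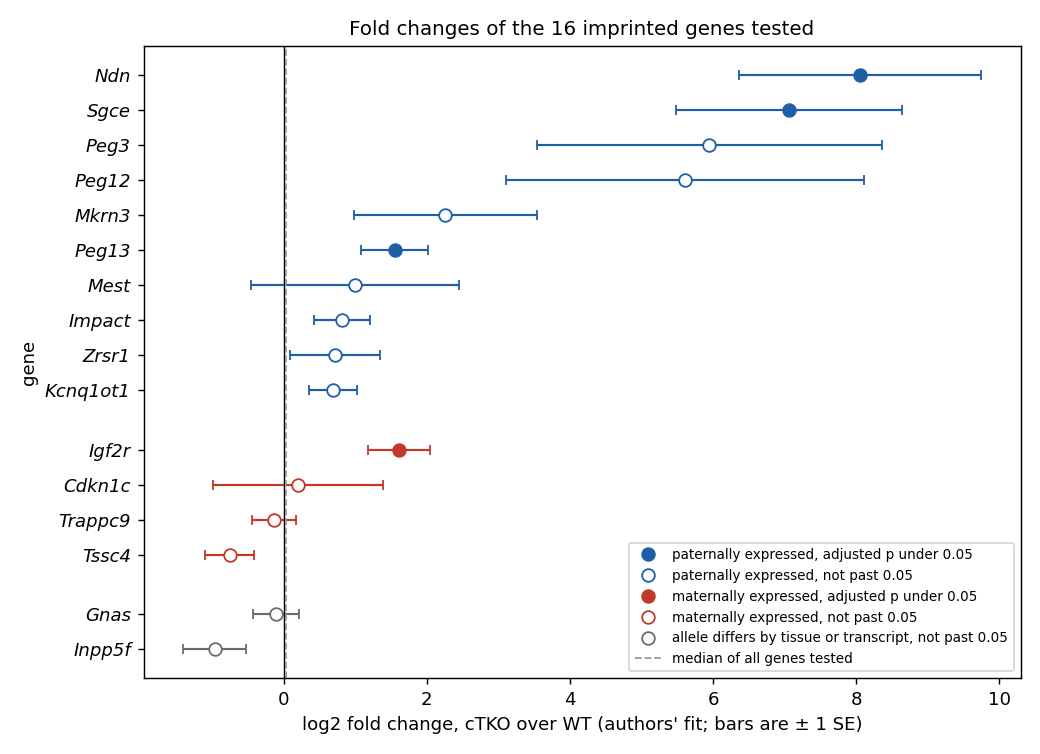
Fold change on the log2 scale, cTKO over WT, of the 16 tested imprinted genes in the authors' fit, with bars of 1 SE on either side and filled points for an adjusted p under 0.05. All 10 paternally expressed genes lie above 0, between 0.69 and 8.05, while the 4 maternally expressed genes lie between -0.76 and 1.61. Of the 10, Ndn, Sgce, Peg3 and Peg12 had at most 1 WT read and entered the test through their cTKO reads.

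Paternally and maternally expressed genes were then set side by side. Of 20 paternally expressed genes 10 were tested, 3 were higher and none was lower, while of 12 maternally expressed genes 4 were tested, 1 was higher and none was lower. Ndn, Sgce, Peg3 and Peg12 had at most 1 WT read and passed the filter on low means through their cTKO reads alone, so they had to be higher to be tested and are left out of the following counts. With 2 or more reads in each WT library there were 6 paternally and 4 maternally expressed genes. Each cTKO library lay above each WT library in 6 of the 6 paternally and in 1 of the 4 maternally expressed genes, against 28.1% of the 11927 tested genes that met the same condition. Over all 12761 tested genes with recovered reads, whatever their WT reads, the share was 31.5%, and 28% lay the opposite way. The median log2 fold change was 0.90 for these paternally expressed genes (from 0.69 to 2.26), 0.03 for the maternally expressed genes (from -0.76 to 1.61) and -0.02 for all genes under that condition. The maternal median rests on few genes: it was 0.91 over the 2 left without those imprinted only in placenta, brain or a single transcript, and 1.42 over the 7 with any fold change. The difference between the classes was not tested, since the genes were chosen with results of these data known.

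The share of genes with cTKO above WT also moved with level, being larger among genes of low level. In the whole table it was 48.7% at a mean from 3.45 to 10, 53.6% from 10 to 50, 41% from 50 to 200, 25.8% from 200 to 1000 and 17.9% from 1000. Of the 6 paternally expressed genes with WT reads, Mkrn3, Mest and Zrsr1 were the less abundant, and Kcnq1ot1, Impact and Peg13 stood among the more abundant genes. The male cTKO library lay above both WT libraries in 37.9% of the 11927 genes and in 1 of the 4 maternally expressed genes. In the 6 paternally expressed genes it had to, since each cTKO library lay above each WT library there. For these 6 it is therefore no separate check of the female cTKO library.

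**Figure D4:**
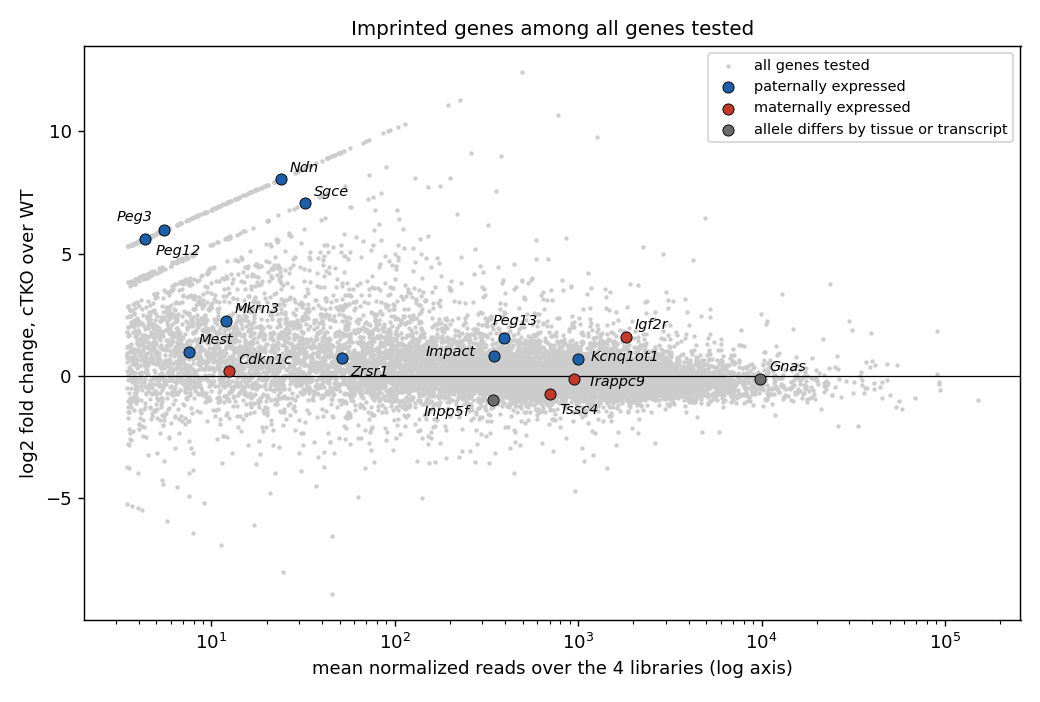
Log2 fold change, cTKO over WT, against the mean normalized reads over the 4 libraries (log axis) for all 12972 genes tested (grey) and the 16 imprinted genes (coloured by parental copy). Ndn, Peg3 and Peg12 lie on the upper edge, where genes have 0 WT reads, and Igf2r and Peg13 lie to the right at 1.61 and 1.55.

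Levels between the 35 genes were compared as mean normalized reads per kb of exon over the 4 libraries. Gnas (877) was followed by Tssc4 (381), Igf2r (195), Trappc9 (120), Peg13 (82.9), Impact (67.7) and Inpp5f (41.0). Zrsr1 (11.4), Kcnq1ot1 (10.7), Ndn (6.45), Cdkn1c (6.13), Mkrn3 (4.69) and Sgce (3.05) formed a lower group, and Mest (1.92), Peg12 (1.65) and Peg3 (0.412) came last among the tested genes. This order pools both genotypes and does not hold in WT alone. Igf2r had 294 per kb in cTKO and 96.3 in WT, where Trappc9 was above it (115 in cTKO and 126 in WT). Ndn, Peg12 and Peg3 were at 0 in WT, and Sgce had 6.07 in cTKO and 0.039 in WT.

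No adjusted p-value was given for 19 of the 35 genes, which had few reads or none, against 46.9% of all genes in the table. In 10 of the 35 genes there was no read in any library, namely H19, Igf2, Ascl2, Slc22a18, Phlda2, Zim1, Snrpn, Magel2, Dlk1 and Rtl1, against 25.7% of the genes in the whole table. Of these 5 are paternally and 5 maternally expressed. They include the fetal growth factor gene Igf2 and its noncoding partner H19, the Notch-like gene Dlk1 with the retrotransposon-derived Rtl1, and the zinc finger gene Zim1. A count of 0 allows up to 3 reads in a library, or 2.48 and 3.73 normalized reads in cTKO and 2.47 and 3.46 in WT. At this depth lower levels were not detectable. Snrpn is in this count although reads in the part it shares with Snurf could not be followed. Its 0 therefore need not mean silence, and the floor given here does not cover it.

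A further 9 genes had a few reads and a raw p-value but no adjusted one. The noncoding RNAs of the Dlk1 domain, which are made from the maternal copy, had their reads in the female cTKO library alone, with 11 for Rian, a host of small nucleolar RNAs, and 1 each for Meg3 and Mirg. Nnat, which codes for neuronatin, had 8 reads there, Peg10 had 7, and Usp29 and Grb10 had 4 each, all with 0 in the other 3 libraries. Nap1l5, an intronless nucleosome assembly gene, had 8 and 1 reads in cTKO, against 1 and 0 in WT, and Plagl1, a zinc finger transcription factor gene, had 3 and 0, against 1 and 1. Thus 7 of the 12 imprinted genes with a mean above 0 and under 10 had every read in the female cTKO library, against 41.9% of the 6389 genes of that range. Herc3, the host gene of Nap1l5, was higher in cTKO, with 4115 and 1351 reads, against 889 and 935 in WT (an adjusted p of 0.00206 by the authors' deposited table). The share of Nap1l5 reads that belong to Herc3 cannot be told apart without strand.

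Markers of other cell types also moved with genotype, and their part in the imprinted genes was not tested. The 6 NK cell markers summed to 6649 and 6169 normalized reads in cTKO, against 1154 and 1555 in WT, and 4 were higher (Klrb1c, Tyrobp, Klra8 and Eomes, of which activated CD8 T cells also express some) while Fcer1g was lower and Ncr1 had 22 and 1 reads in cTKO, against 2 and 4 in WT. Most of each NK sum was Eomes, with 4757 and 4719 normalized reads in cTKO, against 902 and 1336 in WT. The 8 myeloid markers summed to 627 and 281, against 112 and 78.5, with Itgam alone higher. S100a8 and S100a9 had 22 and 19 reads in the female cTKO library and 0 in the other 3. The 8 B cell markers summed to 1032 and 314 in cTKO, against 1928 and 1665 in WT. Cd79b, H2-Ab1 and H2-Aa were lower and Pax5 had 1 read. Cd22 had 748 and 47.2 normalized reads in cTKO, most of the female sum, against 171 and 151 in WT. The 7 erythroid and platelet markers summed to 43.9 and 8.70, against 15.6 and 19.6, and the 4 CD4 T cell markers to 149 and 73.3, against 90.6 and 91.2. Of these Zbtb7b, a transcription factor gene of the CD4 lineage, was higher, with 110 and 34 reads in cTKO, against 15 and 11 in WT (adjusted p 0.0158 in the authors' deposited table). In bulk RNA, fewer cells of a type and less RNA per cell cannot be told apart.

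Genes whose products keep or read imprints were followed as a list. Of 21 such genes 18 were tested, and Tet3, an oxidase of 5-methylcytosine, was higher in cTKO (1.23 ± 0.42 on the log2 scale, with an adjusted p of 0.0308, in the authors' deposited table), with 2026 and 656 reads, against 450 and 599 in WT. The maintenance DNA methyltransferase gene Dnmt1 (log2 fold change 0.63, adjusted p 0.287) and the ZFP57 cofactor gene Trim28 (-0.11, adjusted p 0.867) did not pass in the authors' deposited table. Zfp57 itself had a mean of 1.04 normalized reads and no adjusted p-value. No gene of this list was called lower, while 9.77% of all genes tested were higher and 3.61% were lower. The median log2 fold change of the 18 was 0.37, against 0.04 over all genes tested. The 21 genes summed to 28103 and 21160 normalized reads in the female and male cTKO libraries, against 23567 and 23013 in WT. In this sum the male cTKO library lay below both WT libraries.

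A list of 39 further imprinted genes in the table was followed too. Of 22 tested, Sfmbt2 and Atp10a were higher and Tspan32 was lower, against 9.77% higher and 3.61% lower over all genes tested. Sfmbt2, a Polycomb-related gene expressed from the paternal copy, had 458 and 186 reads in cTKO, against 136 and 90 in WT (1.50 ± 0.43 on the log2 scale, with an adjusted p of 0.0062, in the authors' deposited table). Atp10a, a phospholipid flippase gene counted as maternally expressed, had 1913 and 520 reads in cTKO, against 539 and 366 in WT. In the authors' deposited table its change was 1.37 ± 0.42 on the log2 scale, with an adjusted p of 0.0121. For Atp10a the female cTKO library had 2.45 times the normalized reads of the male one. Tspan32, a tetraspanin gene of the Kcnq1 domain used widely in blood cells, had 541 and 733 reads in cTKO, against 6375 and 3339 in WT (-2.75 ± 0.38 on the log2 scale, with an adjusted p of 3.23e-11, in the authors' deposited table). Sorted by parental copy after their values were seen, 4 tested genes were paternally expressed, of which Airn and Sfmbt2 lay higher in both cTKO libraries, Ddc lay lower and Mcts2 overlapped. Among the 18 maternally expressed ones, 5 lay above and 8 below both WT libraries, with a median log2 fold change of -0.15.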

How the data were processed

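Per the submitters' processing notes, STAR and DESeq2 were used on builds mm10 and GRCm38.p6; the sources used here give no versions, annotation, counting tool or strand setting. The mean of each gene over 4 libraries is a deposited signal, in which the authors divided reads by size factors, per the file headers. Fold changes on the log2 scale with their standard errors, test scores and p-values, raw and adjusted, are the deposited ones. The adjusted p-value is missing in the deposited table for 5181 genes, which have means of 3.43 or less.

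Whole reads per library were recovered from these values. Each mean is a sum of whole reads multiplied by the worth of a read there, and a negative binomial fit of the 2 genotypes at the deposited standard error had to return the deposited fold change. Of 17954 genes with a mean above 0 and under 10000, 17942 had exactly 1 solution, and the largest error of the log2 fold change was 3.23e-09. The recovery and the fit below were tested on simulated data. The 199 genes at 10000 and more were not solved.

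Calls are those of the authors' test. As an alternative limma 3.58.1 (voom, R 4.3.3) was run on the recovered reads of 12761 tested genes, with the recovered size factors, with total reads, with sex as a term and without each library in turn. Genes with an adjusted p or a mean of at least 10 are given in every library, silent genes have a mean of 0, and of other lists those with an adjusted p under 0.05 are named. Others named beside them (neighbours, overlapping genes, markers) were chosen after their values were seen. The members and lists were chosen with earlier results of these data known. Exon lengths come from GENCODE vM21 and promoters from RefSeq on GRCm38.p6.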

Additional observations from a re-analysis of the deposited data

How the results depend on the processing

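Ndn and Sgce were higher in cTKO under each of the 11 alternatives run. Igf2r and Peg13 were called in the deposited test but not by limma with all 4 libraries (adjusted p 0.0575 and 0.0797). By limma with sex as a term both passed (adjusted p 0.00119 and 0.00334). That fit has few libraries left to measure spread, so its p-values lean on the spread of other genes. In the limma fits that left out a library, Igf2r and Peg13 passed without the male cTKO library, and not without the female cTKO library (0.197 and 0.343), the female WT library (0.144 and 0.253) or the male WT library (0.0738 and 0.17). Re-centring on the median log2 fold change of -0.10 of genes whose mean reached 100 gave the 4 calls of the deposited test. Of the imprinted genes, 2 were higher with total reads for size factors and 2 to 8 when a library was left out; without the larger (female) cTKO library these 2 were Ndn and Sgce, and 8 were called without the smaller (male) one. With sex as a term 1 was lower (Inpp5f), and 0 to 1 when a library was left out (Inpp5f without the female and Tssc4 without the male cTKO library). Paternally expressed genes called higher numbered 5 with sex as a term and 2 to 7 with a library left out. Maternally expressed genes called higher numbered 0 by limma on all libraries and 0 with total reads, and 0 to 1 with a library left out, as did those called lower. The median log2 fold change of the maternally expressed genes was 0.91 without genes imprinted only in placenta, brain or a single transcript, 1.42 over all with a fold change, and -0.25 to 0.46 with a library left out. Over all genes, 824 were higher and 230 lower at an adjusted p under 0.01, 776 were lower at 0.1, 245 were lower with total reads, and 555 to 2771 were higher and 113 to 1735 lower with a library left out; the cause was not tested. The count of paternally expressed genes with each cTKO library above each WT library was 6 with 2 or more reads in each WT library and 2 among the other imprinted genes, both chosen after the data were seen. Counting a mean under 10 as silent gave 22 silent imprinted genes. No paired analysis was possible because the animals of the genotypes share no replicate numbers in the labels; sex as a term was run in its place. Depth limits the genes with few reads: Peg3, with 1 read in the male cTKO library, passed with sex as a term (adjusted p 0.00964) and not without the female cTKO library (0.394), and Peg12 passed by limma on all libraries (0.045) and not without that library (0.211).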
